A study of Mus musculus with 12 samples.

Results

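Mat2a and 8 further genes of the methionine and folate cycles (Mat2b, Ahcy, Mtr, Mthfd1, Mthfd2, Shmt1, Shmt2 and Mettl16) were followed in total mRNA of LPS-activated mouse B cells. They were taken by gene name, as 9 of the 29486 genes in the deposited table of normalised counts, and all 9 passed the minimum mean count of 10, as did 14966 genes in all. Splenic B cells of C57BL/6Babr mice were cultured in 3 conditions with 4 libraries each. Cells of the first condition received LPS, a bacterial product that activates B cells, at 10 µg/ml for 48 h (LPS). Cells of the next received LPS and then 20 µM etoposide for 4 h (LPS + etoposide). Cells of the last received 10 µM KU55933 after 47 h of LPS, 1 h ahead of the same etoposide treatment (LPS + KU55933 + etoposide). Etoposide traps topoisomerase II on DNA and so causes breaks, and KU55933 inhibits ATM, the kinase that signals such breaks. All 3 conditions therefore carry LPS, and no condition had KU55933 without etoposide. It is not stated if the LPS cells were held for 4 h more, to the time when etoposide-treated cells were collected. The libraries of each condition carried Illumina indexes that no other condition carried, so that index and treatment cannot be told apart.

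Each of the 12 deposited columns was a single fitted mean of its condition multiplied by a factor of the library. Within a condition, the ratio of any pair of columns was equal for all genes (the log2 ratio deviated by at most 1.42e-14). The table therefore holds 1 value per gene and condition and no spread between replicates, so that no test could be made and no p-value is given. Below, a level is the fitted mean of a condition after scaling between libraries (normalised count), and a difference is on the scale of log2(level + 1). A difference of at least 1.5-fold, or 0.58 on the log2 scale, was taken as past the threshold. Fitted signals summed over the 4 libraries of a condition gave counting errors of 0.474% to 1.71% for the levels of the 9 genes. These are lower limits, because the spread between cultures is not in the table. The signal summed over all genes was 20739978 to 23935658 per library with LPS, 22523516 to 30575195 with LPS + etoposide and 20400994 to 25052093 with LPS + KU55933 + etoposide. As a check of the labels, 10 of 10 listed p53 targets were higher with etoposide than with LPS (median log2 difference 3.07). Of these, Cdkn1a and Mdm2 had levels of 409 and 2610.2 with LPS, 13503 and 16732 with LPS + etoposide, and 10792 and 9515 with LPS + KU55933 + etoposide. All 7 B-cell markers passed the minimum, and among them the B-cell factor Pax5 was at 5508, 1127 and 1167 in the same order. None of the 6 T-cell and 3 neutrophil markers passed the minimum, whereas 5 of the 6 macrophage and monocyte markers did. Of these, Cd14 was at 5.1, 24.3 and 40.6, Cd68 at 104, 212 and 175, and Itgam at 219, 129.5 and 115, so that their order differed. The summed level of the 6 was 415, 470.0 and 431, against 459027, 365630.0 and 379047 for the 7 B-cell markers. Within the B-cell sum, Ighm alone was at 342741, 292754 and 298052. The 4 plasmablast markers in the table differed in their order, with Sdc1 at 138, 1962 and 637, Prdm1 at 2346, 1722 and 1221, Xbp1 at 7567, 5340.0 and 5439, and Jchain at 3898, 5148 and 2704. Of the red blood cell markers, 1 of 3 passed the minimum. The part of these markers in the differences below was not tested. In bulk RNA such as this, fewer cells that express a gene and less RNA per cell cannot be told apart.

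The methionine cycle makes S-adenosylmethionine, the methyl donor for DNA, RNA and histone methylation, from methionine and ATP. The methyl group that regenerates methionine comes from the folate cycle, which takes carbon units from serine and runs in parallel branches in the cytosol and in mitochondria and also feeds purine and thymidylate synthesis. Activated lymphocytes rely on these pathways while they divide. Mat2a encodes the catalytic subunit of methionine adenosyltransferase outside the liver, and Mat2b its regulatory subunit. Mettl16 is an RNA methyltransferase that binds hairpins in the 3′ end of Mat2a RNA and adjusts its splicing and stability to the supply of S-adenosylmethionine.

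The hairpin motif of Mettl16 is the sequence by which Mat2a differs from the other members, so its occurrences are printed here. The letters TACAGAGAA or TACAGAAAA, read on the transcript strand, occurred 6 times in the 1494 bases after the stop codon of Mat2a. The gene lies on the minus strand of chromosome 6, from 72432799 to 72439558 (GRCm38). Each window below is given 5′ to 3′ as DNA with the motif in capitals, named by how many bases after the stop codon the motif begins.
Base 40 (chr6:72434235-72434263): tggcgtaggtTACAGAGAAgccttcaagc
Base 824 (chr6:72433451-72433479): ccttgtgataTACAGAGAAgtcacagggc
Base 1003 (chr6:72433272-72433300): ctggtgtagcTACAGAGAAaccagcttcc
Base 1118 (chr6:72433157-72433185): atggcgtaagTACAGAGAAgccatcacct
Base 1229 (chr6:72433046-72433074): caaggtgtccTACAGAAAAaccttgggtt
Base 1337 (chr6:72432938-72432966): gctggtgtggTACAGAGAAgccagcttgt
The other 8 genes had no occurrence after their stop codons. Of 20979 mouse genes with an annotated region after the stop codon, 4.46% had at least 1 occurrence, and no gene other than Mat2a had 6. The letters were chosen as those of the Mat2a hairpins, so that the place of Mat2a above other genes is no separate result. The counts were not adjusted for the length of the region. These motifs are a description of the annotated transcripts, and no binding was measured in these libraries.

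Mat2a (ENSMUSG00000053907) was lowest with LPS + KU55933 + etoposide. Its deposited values were 7087, 7863, 8179 and 7369.8 in the 4 LPS libraries, 7189.6, 8058, 9759.7 and 7812 in the LPS + etoposide libraries, and 4082, 4603, 4931 and 5012 in the LPS + KU55933 + etoposide libraries. The values of a set differ only by the factor of the library, so that overlap between sets, or its absence, says nothing about replicates. After scaling, the level was 8614 with LPS, 7429 with LPS + etoposide and 4501 with LPS + KU55933 + etoposide. With the inhibitor the level was thus 0.606 of that with etoposide alone (log2 difference −0.72) and 0.523 of that with LPS (−0.94, and within the threshold with quantile normalization, at −0.56). Of all genes kept, 7.57% had a lower difference than Mat2a between the etoposide conditions. The difference between LPS + etoposide and LPS was −0.21, and it ranged from −0.32 to 0.11 over the 8 other scalings and pseudocounts, so that its sign is not settled. The difference between the etoposide conditions kept its direction and stayed past the threshold under all 8, from −0.82 to −0.65. The gene-level value includes transcripts that retain an intron, which were not counted separately. An exon of Particl on the opposite strand shares 508 bases with Mat2a, or 11.3% of its exonic length, and the strand setting of the counting was not stated.

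Mat2b (ENSMUSG00000042032, chromosome 11, 40679314 to 40695203) had levels of 2057, 1894 and 1914 in the order LPS, LPS + etoposide and LPS + KU55933 + etoposide. Its log2 differences were −0.12 with etoposide and 0.02 with the inhibitor, of which the sign turned under at least 1 other scaling. Per kilobase of exon, Mat2a had 4.67 times the level of Mat2b with LPS, 4.37 times with LPS + etoposide and 2.62 times with LPS + KU55933 + etoposide. By coding length, the ratio was 3.34, 3.13 and 1.88 in the same order. Such a ratio is the same under any scaling by 1 factor per library. Quantile normalization alters it, and there the log2 change of the ratio was 0.12 with etoposide, against −0.09 here, and −0.72 between the etoposide conditions, against −0.74 here. Mettl16 (ENSMUSG00000010554, chromosome 11, 74770830 to 74828525) had levels of 1867, 1552 and 1261. Its log2 difference was −0.30 between the etoposide conditions, within the threshold, and −0.57 between LPS + KU55933 + etoposide and LPS, which passed the threshold under 2 of the 8 other settings.

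Ahcy and Mtr, which complete the methionine cycle, were within the threshold in all 3 comparisons. Ahcy (ENSMUSG00000027597, chromosome 2, 155059310 to 155074497) encodes the hydrolase that clears S-adenosylhomocysteine, the product left after each methylation. Its levels were 6065, 8675 and 6803. With etoposide it was 1.43 times the LPS level (log2 difference 0.52), and it was past the threshold under 4 of the 8 other settings, among them the scaling on genes with a mean of at least 100. Between the etoposide conditions its difference was −0.35. Mtr (ENSMUSG00000021311, chromosome 13, 12182712 to 12258113), the methionine synthase that joins the folate cycle to the methionine cycle, had levels of 1561, 1549 and 1331. Its difference between the etoposide conditions was −0.22, and that with etoposide was −0.01 and changed sign under 4 settings.

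**Figure D1:**
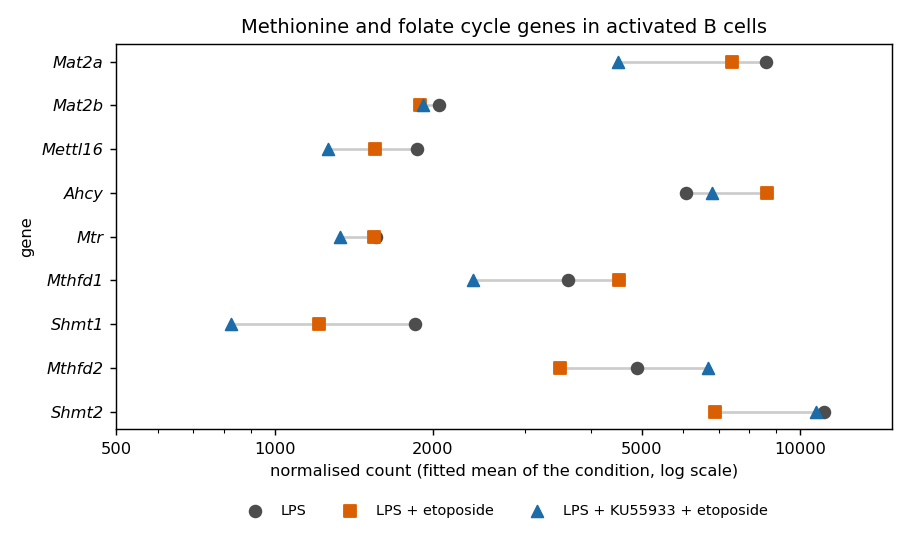
Fitted level of each of the 9 genes (normalised count, log axis) with LPS (circles), LPS + etoposide (squares) and LPS + KU55933 + etoposide (triangles), 1 point per condition and no error bars because the table holds no spread between replicates. Mat2a stood at 7429 with LPS + etoposide and at 4501 with LPS + KU55933 + etoposide, and Mthfd2 at 3498 and 6688.

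Between the etoposide conditions, the cytosolic Mthfd1 was lower with KU55933 and the mitochondrial Mthfd2 and Shmt2 were higher. Mthfd1 (ENSMUSG00000021048, chromosome 12, 76255298 to 76319803), the trifunctional cytosolic enzyme that interconverts the folate carbon units, had the lowest difference of the 9 genes with KU55933. Its deposited values were 2981, 3307, 3440.0 and 3099.7 with LPS, 4375, 4904, 5939 and 4754 with LPS + etoposide, and 2165, 2441, 2615 and 2658 with LPS + KU55933 + etoposide. The values of a set differ only by the factor of the library, so that overlap between sets is not a comparison of replicates. The scaled levels were 3623, 4521 and 2387, so that the level with the inhibitor was 0.528 of that with etoposide alone (log2 difference −0.92, from −1.02 to −0.87 over the other settings). Against LPS, the difference with the inhibitor was −0.60 and was within the threshold under 4 of the 8 other settings. Mthfd1 was 1.25 times the LPS level with etoposide alone (0.32).

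Mthfd2 (ENSMUSG00000005667, chromosome 6, 83305691 to 83325908), the mitochondrial dehydrogenase and cyclohydrolase of the same pathway, was higher with KU55933. Its deposited values were 4032, 4473, 4653 and 4193 with LPS, 3386, 3795, 4596 and 3679 with LPS + etoposide, and 6065, 6839, 7327 and 7447 with LPS + KU55933 + etoposide. As for Mthfd1, the values of a set differ only by the factor of the library. At scaled levels of 4901, 3498 and 6688, Mthfd2 with the inhibitor was 1.91 times the etoposide level (log2 difference 0.93, from 0.84 to 1.09 over the other settings), and 97.9% of all genes kept had a lower difference. With etoposide it was 0.714 of the LPS level (−0.49), within the threshold except after scaling on all rows. Against LPS, the difference with the inhibitor was 0.45 and passed the threshold under 3 settings.

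Shmt2 (ENSMUSG00000025403, chromosome 10, 127517123 to 127522444), the mitochondrial serine hydroxymethyltransferase that splits serine to glycine and loads the carbon unit on folate, was lower with etoposide and near its LPS level with the inhibitor. Its deposited values were 9157, 10159, 10568 and 9522 with LPS, 6679.6, 7487, 9067 and 7258 with LPS + etoposide, and 9746, 10991, 11774 and 11968 with LPS + KU55933 + etoposide. Here too, the values of a set differ only by the factor of the library. The scaled levels were 11129.5, 6902 and 10748. The difference with etoposide was −0.69, or 0.620 of the LPS level, and was within the threshold with column totals, quantile normalization and the columns as deposited. The difference between the etoposide conditions was 0.64 (1.56-fold), and was within the threshold with the columns as deposited, at 0.54. The difference of −0.05 between LPS + KU55933 + etoposide and LPS changed sign under 4 settings.

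Shmt1 (ENSMUSG00000020534, chromosome 11, 60788104 to 60811718), the cytosolic counterpart of Shmt2, had levels of 1848, 1216 and 826. It was lower than with LPS in both etoposide conditions, by −0.60 with etoposide alone and by −1.16 with the inhibitor, where the level was 0.447 of that with LPS. The first of these was within the threshold under 4 of the 8 other settings, and the second was past it under all 8. Between the etoposide conditions its difference was −0.56, just within the threshold, and it was past it with the columns as deposited, at −0.65. Exons of Smcr8 on the opposite strand share 184 bases with Shmt1, or 4.74% of its exonic length, and Smcr8 had levels of 3125, 6482 and 5371. The part of these reads in the Shmt1 value was not tested.

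For Shmt2 to Shmt1 and for Mthfd2 to Mthfd1, the ratio of the mitochondrial to the cytosolic member was highest with KU55933. The mitochondrial formyl-folate synthetase Mthfd1l did not share this order against Mthfd1. Its levels were 4642 with LPS, 2202 with LPS + etoposide and 2201 with LPS + KU55933 + etoposide. Those of Mthfd1 were 3623, 4521 and 2387. Without adjustment for length, Mthfd1l was thus above Mthfd1 with LPS only. Per kilobase of exon, Shmt2 was at 7.52 times Shmt1 with LPS, 7.09 times with LPS + etoposide and 16.3 times with LPS + KU55933 + etoposide. Mthfd2 was at 1.72 times Mthfd1 with LPS, 0.986 times with LPS + etoposide and 3.57 times with LPS + KU55933 + etoposide. By coding length, the Shmt2 to Shmt1 ratio was 5.71, 5.38 and 12.3 in the same order, and the Mthfd2 to Mthfd1 ratio 3.22, 1.84 and 6.68. Whether Mthfd2 or Mthfd1 was higher with LPS + etoposide thus depended on the length used. With quantile normalization, which alters such ratios, the log2 change of the Shmt2 to Shmt1 ratio with etoposide was 0.13, against −0.09 here, so that its direction is not settled. Between the etoposide conditions the change was 1.28 there, in the same direction as here, and that of the Mthfd2 to Mthfd1 ratio was 1.96 there and 1.86 here.

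**Figure D2:**
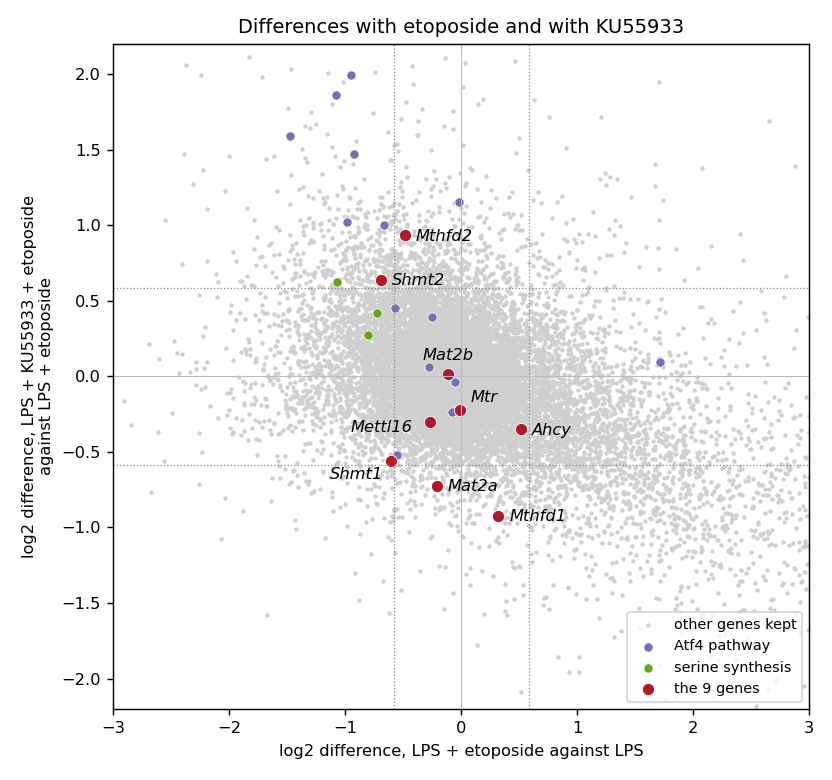
Log2 difference of LPS + etoposide against LPS (horizontal axis) and of LPS + KU55933 + etoposide against LPS + etoposide (vertical axis) for the 9 genes (red), the Atf4 pathway list (purple), the serine synthesis list (green) and the other genes kept (grey), with dotted lines at 1.5-fold and 342 genes outside the axes. Both axes use the LPS + etoposide libraries, with opposite sign. Mthfd2 and Shmt2 lie above the upper line and Mat2a and Mthfd1 below the lower one.

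Counted over the 9 genes, 0 were higher and 2 lower (Shmt1 and Shmt2) with LPS + etoposide than with LPS, where 20.8% of all genes kept were higher and 16% lower by the same threshold. The median difference of the 9 was −0.21, and that of all genes kept was −0.02. Between the etoposide conditions, 2 were higher with KU55933 (Mthfd2 and Shmt2) and 2 lower (Mat2a and Mthfd1), where 6.98% of all genes kept were higher and 10.7% lower. The medians were −0.30 for the 9 and −0.04 for all. Between LPS + KU55933 + etoposide and LPS, 0 were higher and 3 lower (Mat2a, Mthfd1 and Shmt1), where 19.6% of all genes kept were higher and 15.4% lower, with medians of −0.23 and 0.02. The comparisons share libraries, so that a low or high fitted mean in 1 condition enters 2 of them. With 9 genes, a count of 2 or 3 is set beside these shares as a description only. The counts depended on the scaling. With the scaling on genes with a mean of at least 100, Ahcy was higher with etoposide (0.585) and Shmt1 was within the threshold (−0.53). Under that scaling, Mthfd1 was also within the threshold between LPS + KU55933 + etoposide and LPS (−0.54). With column totals and with quantile normalization, Ahcy was higher with etoposide, and Shmt1 and Shmt2 were within the threshold.

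The order of the genes by level per kilobase of exon placed Shmt2 first with LPS, at 3579.8, followed by Ahcy at 2162, Mat2a at 1920.1 and Mthfd2 at 1405. Below these came Mthfd1 at 816, Shmt1 at 476, Mat2b at 411, Mtr at 183 and Mettl16 at 135. With LPS + etoposide, Ahcy was first at 3093 and Shmt2 second at 2219.99, with Mat2a at rank 3, at 1656. With LPS + KU55933 + etoposide, Shmt2 was first at 3457 and Ahcy second at 2425, Mthfd2 was at rank 3 with 1918, and Mat2a was at rank 4 with 1003. Whether neighbours in these orders differ beyond their spread could not be read from fitted means. By coding length in place of exonic length, Mat2a was at rank 2 with LPS and with LPS + etoposide and at rank 4 with LPS + KU55933 + etoposide. Other ranks moved too. Shmt2 was at rank 3 with LPS + etoposide, and Mthfd2 at rank 2 and Ahcy at rank 3 with LPS + KU55933 + etoposide. Mtr was at rank 9 in each condition, and Mettl16 at ranks 8, 8 and 7.

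**Figure D3:**
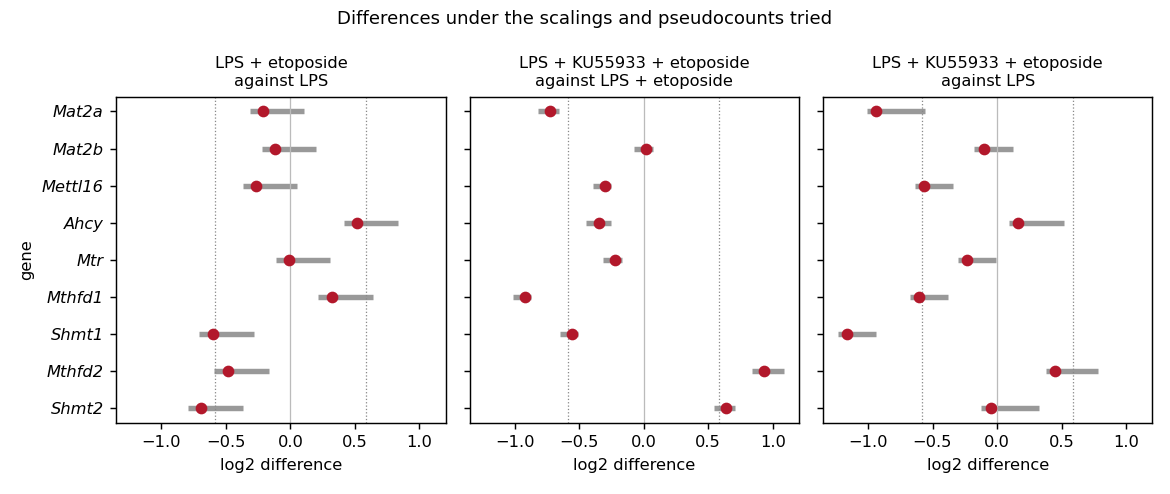
Log2 difference of each of the 9 genes in the 3 comparisons (points), with grey bars from the lowest to the highest value over 8 other scalings and pseudocounts and dotted lines at 1.5-fold. The bars of Mat2a, Mthfd1 and Mthfd2 between the etoposide conditions stay past the lines, while those of Ahcy, Mthfd1, Mthfd2, Shmt1 and Shmt2 in LPS + etoposide against LPS, of Shmt1 and Shmt2 between the etoposide conditions, and of Mat2a, Mettl16, Mthfd1 and Mthfd2 in LPS + KU55933 + etoposide against LPS cross a line.

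The sequences before the start sites were read because Mthfd2 and Shmt2 differed in the opposite direction to Mthfd1 and Mat2a. The letters CCAAT, on either strand, occurred in the 250 bases before to 50 bases after the RefSeq start of 8 of the 9 genes, against 37.4% of 32851 mouse promoters of the same length (GRCm38.p6). CCAAT is the core of the box bound by the NF-Y complex. The 32851 promoters were not limited to the genes kept here. Among other gene lists used here, CCAAT was in 3 of 3 serine synthesis, 9 of 15 Atf4 pathway and 5 of 9 p53 target promoters. It was in 6 of 16 promoters of the m6A list and 2 of 7 of the Myc list. Mthfd2 had 3 occurrences, and Shmt2 had none in this window. The RefSeq starts of Mthfd2, Shmt1, Mat2b and Mettl16 lie inside the gene spans given above, which are from another annotation (GENCODE M21). The sequences printed below for Mthfd2 and Shmt1 therefore lie inside those spans too. The windows of Mthfd2, of its cytosolic counterpart Mthfd1 and of Shmt1 and Mat2a are shown 5′ to 3′ on the strand of the gene, with CCAAT or its reverse complement ATTGG in capitals and the first base of the capitals counted from the start site.
Mthfd2, −96 (chr6:83317684-83317712): tgactccttcagCCAATcaggacctgctc
Mthfd2, −47 (chr6:83317635-83317663): ctgagatctcctATTGGctcctacgccgg
Mthfd2, −22 (chr6:83317610-83317638): ccggctcaggggCCAATgggcgcgcggga
Mthfd1, −69 (chr12:76255151-76255179): acactatctctgATTGGctaaaagcgagg
Shmt1, −47 (chr11:60811296-60811324): atgctcccactgATTGGgccgctgtaggg
Mat2a, −89 (chr6:72439629-72439657): cgcccgcggcgcATTGGcgcgcgacgccg
Mthfd2, higher with KU55933, and Mthfd1 and Mat2a, lower with it, held the box. The part of the box in these differences was not tested. The letters TGATGNAA, as in sites of Atf4 with its C/EBP partners, and the E-box CACGTG were in the window of 0 of the 9 genes, against 3.97% and 7.15% of all promoters. No occurrence says only that these letters are not in this window. The motifs were chosen with the levels known.

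Other genes of the folate pathway were taken from lists. For all lists below, the shares of all genes kept were 20.8% higher and 16% lower with etoposide. With KU55933 under etoposide they were 6.98% higher and 10.7% lower. Because the lists are short, their counts are set beside these shares as a description only. Of 10 further cytosolic genes kept, 2 were higher and 1 lower with etoposide (median 0.24), and 0 were higher and 2 lower with KU55933 under etoposide (median −0.32). The count with etoposide depended on the scaling. The whole list of 12, Mthfd1 and Shmt1 included, had 2 higher and 2 lower (median 0.24), against 6 higher and 0 lower with the columns as deposited (median 0.56), and 2 higher and 0 lower with column totals and with the scaling on genes with a mean of at least 100. Gart, an enzyme of purine synthesis that uses formyl-folate, had levels of 3960 with LPS, 5339 with LPS + etoposide and 2857 with LPS + KU55933 + etoposide, with differences of 0.43 and −0.90. This is the order of Mthfd1. Atic, which follows Gart in the purine pathway, was at 5510.3, 3824 and 2869.65, and the folate carrier Slc19a1 was at 1000.1, 655 and 594.

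Of 8 further mitochondrial folate genes kept, 1 was higher and 2 lower with etoposide (median 0.11), and 1 was higher and 1 lower with KU55933 under etoposide (median −0.08). Aldh1l2, the mitochondrial formyl-folate dehydrogenase, was at 697, 367 and 647, with differences of −0.92 and 0.82, in the order of Shmt2. Mthfd1l, the mitochondrial formyl-folate synthetase, was at 4642, 2202 and 2201, a difference of −1.08 with etoposide alone and of the same size with the inhibitor. Amt, of the glycine cleavage system, was at 145, 375 and 350.0, and its partner Gcsh was at 482, 540.5 and 358. The 3 serine synthesis genes were all lower with etoposide (median −0.80), and 1 of them, Psph, was higher with KU55933 under etoposide. Psph was at 1677, 798 and 1229, Phgdh at 7948, 4558 and 5506, and Psat1 at 9027, 5448 and 7273. Only 1 of the 3 was lower by the threshold with quantile normalization and with the columns as deposited.

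Of 7 further methionine-cycle genes kept, 1 was higher and 2 lower with etoposide (median 0.01), and 0 passed the threshold with KU55933 under etoposide (median −0.03). The lower ones were Mmachc, which processes vitamin B12 for Mtr, at 400, 247 and 284, and Ahcyl2, a relative of Ahcy, at 2124, 1343 and 1578. Neither was past the threshold with column totals or the columns as deposited, where 0 genes of the list were lower. Mat1a, the liver counterpart of Mat2a, and Bhmt were under the minimum. Of the 9 genes of methionine salvage and polyamine synthesis, which draw on S-adenosylmethionine, 1 was higher and 3 lower with etoposide (median −0.39), and 0 were higher and 2 lower with KU55933 under etoposide (median −0.18). Mtap, which begins salvage, was at 2772, 1106 and 674, a difference of −2.04 between LPS + KU55933 + etoposide and LPS. Odc1, which makes putrescine, was at 7011, 15668 and 12792, and the spermine synthase Sms was at 2931, 1644 and 1449.7. Enoph1, also of salvage, was at 481, 272 and 256. Over the other settings, 1 to 4 of this list were lower with etoposide.

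Uptake genes for methionine and serine were 10, of which 1 was higher and 4 lower with etoposide (median −0.49), and 3 were higher and 1 lower with KU55933 under etoposide (median 0.21). Slc1a4, a carrier of alanine, serine and cysteine, was at 982, 521 and 1539.6, with differences of −0.91 and 1.56. Slc3a2, the heavy chain of the large neutral amino acid carrier, was at 4514, 3962 and 7273, a difference of 0.88 with the inhibitor. Slc38a1 was at 9527, 4916 and 6522, and Slc43a2 was at 1159, 645.0 and 647. Over the other settings, 2 to 5 of this list were lower with etoposide. Of 5 transsulfuration genes, which take homocysteine to glutathione, 2 were higher and 0 lower with etoposide (median 0.43), and 2 were higher and 2 lower with KU55933 under etoposide (median −0.12). Gss was at 381, 1919.9 and 855, while Cth was at 1103, 765 and 1345 and Gclm at 539, 363 and 567, so that the list held genes of opposite order. Over the other settings, 2 or 3 were higher and 0 to 2 lower with etoposide.

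**Figure D4:**
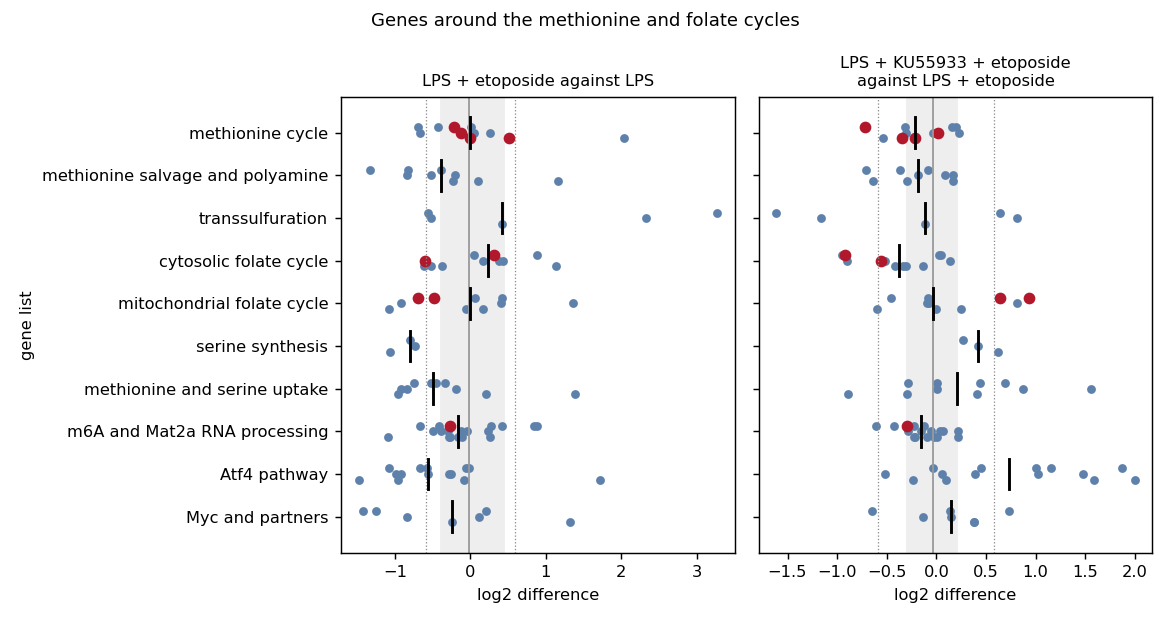
Log2 differences of the genes kept in 10 lists, with LPS + etoposide against LPS on the left and LPS + KU55933 + etoposide against LPS + etoposide on the right. Red points are the 9 genes, blue points the other genes of a list, black bars list medians, the grey line and band the median and quartiles of all genes kept, and dotted lines 1.5-fold. The Atf4 pathway list has its median at −0.57 on the left and 0.73 on the right.

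Atf4 is the transcription factor of the integrated stress response and drives amino acid synthesis and transport genes, of which Mthfd2, Shmt2, Psat1 and Psph are known examples. Of the 14 genes of this list that were kept, 1 was higher and 6 lower with etoposide (median −0.57, with 5 to 8 lower over the other settings). Of all genes kept, 20.8% were higher and 16% lower there. With KU55933 under etoposide, 7 of the 14 were higher and 0 lower (median 0.73), where 6.98% of all genes kept were higher and 10.7% lower. Of these 14 genes, Atf4 was at 8921, 5611 and 11213, and its targets Atf5, Trib3 and Chac1 were at 874, 451 and 1802, at 773, 366 and 1336, and at 427, 153 and 461. Asns was at 3378, 1709 and 3467. Slc7a11, a cystine carrier, had another order, at 383, 260.1 and 181, with a difference of −0.52 between the etoposide conditions and −1.07 between LPS + KU55933 + etoposide and LPS. Atf4, Asns and Slc7a11 were named with their values known. Cebpb, a partner of Atf4, was at 47.0, 156 and 167. Of the 15 listed genes, 5 had TGATGNAA in the promoter window (Asns, Chac1, Slc7a11, Trib3 and Vldlr). The list was made without any of the 9 genes. In the Myc list, where Myc also drives folate genes in dividing cells, 1 of 7 genes was higher and 3 were lower with etoposide (median −0.24), and 1 was higher and 1 lower with KU55933 under etoposide (median 0.15). Myc was at 3737, 1577 and 1733, its partner Max had a difference of −0.84 with etoposide, and Mxd1 and Mxd3, which oppose or compete with Myc, were at 358, 898 and 1165 and at 262, 97.7 and 61.8. Mxi1 was at 741, 857 and 1422. These lists were chosen with earlier results of these data known, and their part in the differences of the 9 genes was not tested.

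In the list of m6A RNA methylation and Mat2a RNA processing, 18 genes besides Mettl16 were kept. Of these, 2 were higher and 2 lower with etoposide (median −0.14), and 0 were higher and 1 lower with KU55933 under etoposide (median −0.14). Fto, an RNA demethylase, was at 1424, 669 and 673. Cpsf6, of the cleavage factor that takes part in Mat2a splicing, was at 7678, 4829 and 4119, and the nuclear m6A reader Ythdc1 was at 4081, 7307 and 5440.4. Rbm15, of the main m6A writer complex, was at 1400.2, 2593 and 2139. With the columns as deposited, the medians with etoposide of this list, Mettl16 included, and of the Myc list turned to 0.15 and 0.08.

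The genes with a pair of differences most like that of Mat2a, among 10871 with a mean of at least 100, were S1pr3, Gm8898, Myo1f, Cbfa2t3 and 4833445I07Rik, at Euclidean distances from 0.018 to 0.054 on the log2 scale. For S1pr3, the differences were −0.23 with etoposide and −0.72 with KU55933 under etoposide. The likeness is over 3 fitted means, and 15 genes lay within a distance of 0.1.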

How the data were processed

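Poly(A) RNA was sequenced by the authors in 12 libraries (TruSeq Stranded mRNA kit, single-end reads of 100 bases), trimmed with Trim Galore and cutadapt 1.2.1, mapped with TopHat2 2.0.12 to GRCm38, counted with HTSeq on Ensembl 78 genes, and fitted with DESeq2 1.6.3, per the labels and the methods of the study. The strand setting was not given in the sources used here. The deposited table holds a signal per gene and library named normalised count, which the check of column ratios showed to be a fitted mean times a library factor. The 3 deposited comparisons of the authors, with mean signal, log2 fold change, standard error, statistic and p-values, were not used.

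Libraries were scaled by the median of ratios over the 15006 genes with a mean of at least 10. The plan did not name this minimum. It was first 100 and was changed to 10 after the values of the 9 genes had been seen. The minimum of 100 is among the 8 other settings. Among the 9 genes, the change moved Ahcy and Shmt1 across the threshold in LPS + etoposide against LPS. It also moved Mthfd1 across it in LPS + KU55933 + etoposide against LPS. Genes with a mean level of at least 10 over the 3 conditions were kept. Log2 differences used a pseudocount of 1. Because the columns hold no spread between replicates, the planned test with limma was not made and a threshold of 1.5-fold was used. Lengths and positions came from GENCODE M21, sequences before start sites from RefSeq, and promoters matched for 9 of 9 genes. Python 3.11.15, numpy 2.4.6, pandas 2.3.3 and matplotlib 3.10.9 were used, and the functions were tested on simulated data. Named list genes are those past 1.5-fold in any comparison with a mean of at least 100, up to 4 per list, besides the 9 genes, Cdkn1a, Mdm2 and the 5 genes most like Mat2a. Mat1a, Bhmt, Vldlr, Slc7a11, Asns, Atf4, Max, Pax5, Ighm, Cd14, Cd68, Itgam, Sdc1, Prdm1, Xbp1, Jchain, Particl and Smcr8, named outside this rule, were chosen after their values were seen. The members and lists were chosen with earlier results of these data known. Results for some genes that the rule names are not reported here.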

Additional observations from a re-analysis of the deposited data

How the results depend on the processing

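Over 8 other scalings and pseudocounts, 191 of 216 member differences stayed on the same side of 1.5-fold and 0 of those past it turned sign, and 16 of 27 differences had no setting on the other side. Scaling on genes with a mean of at least 100 and on all rows, and the filter of 10 in 4 libraries, were chosen after seeing the data. Relative to the scaling used, the median of all genes shifted in LPS + etoposide against LPS by 0.11 with column totals, 0.32 with the columns as deposited and −0.10 with scaling on all rows, and in LPS + KU55933 + etoposide against LPS by 0.16 with column totals and 0.22 with the columns as deposited. The share of calls that were higher with etoposide was 56.5%, against 45.1% with quantile normalization and 81.0% with the columns as deposited. With KU55933 under etoposide it was 39.4%, against 49.8% and 26.7%. For LPS + KU55933 + etoposide against LPS it was 56.0%, against 70.8% with column totals and 75.8% with the columns as deposited.

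Of 72 counts of genes past the threshold, 58 were within 1.5 times. With etoposide, 3110 genes were higher and 2393 lower. The columns as deposited gave 4750 higher and 1116 lower, no filter 4823 higher, a filter of 50 gave 1958 higher, and a fold of 2 gave 1966 higher and 876 lower. With KU55933 under etoposide, 1045 were higher and 1607 lower. A fold of 2 gave 253 higher and 589 lower, no filter 2444 lower and a filter of 50 gave 1002 lower. Between LPS + KU55933 + etoposide and LPS, 2935 were higher and 2309 lower. A filter of 50 gave 1896 higher, a fold of 2 gave 1613 higher and 870 lower, and the columns as deposited gave 1358 lower. A stricter filter or fold leaves fewer genes by construction, and the other causes were not tested.

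No paired analysis was possible because the columns of a condition hold 1 fitted mean and no values of their own. For the same reason, leaving out each replicate was not run. Depth does not limit the levels of the 9 genes, whereas the spread between replicates is not in the values used here.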
